A study of Mus musculus with 11 samples.

Results

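Surface mucous cells, also called pit or foveolar cells, line the surface of the stomach and the pits that open onto it. Their 10 genes described here are *Muc5ac*, *Mucl3*, *Tff1*, *Gkn1*, *Gkn2*, *Capn8*, *Capn9*, *Psca*, *Vsig1* and *Anxa10*. They were taken as a named list, chosen with earlier results of these data known. Their counts set beside those of all genes are therefore descriptive. Each was matched to the probe set that carried its symbol alone. All 10 were measured, each by 1 probe set, among 19938 genes. As background, pit cells secrete the mucus gel that shields the stomach from acid and are renewed continually from stem cells deeper in the gland. The gel is built from the mucin MUC5AC, to which the trefoil peptide TFF1 and the gastrokines are added, and these cells turn over faster than the parietal and chief cells of the same gland.

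Stomach tissue was profiled on 11 Affymetrix arrays, 1 per sample. The pChePS_GC group held 4 samples of gastric cancer from mice with Pdx-1-Cre, 1 floxed and 1 wild-type *Cdh1* allele, and 2 floxed alleles each of *Trp53* and *Smad4*. The pCP_GC group held 3 samples of gastric cancer from mice with Pdx-1-Cre and 2 floxed alleles each of *Cdh1* and *Trp53*. The NGE group held 4 samples of normal gastric epithelium from mice negative for the Cre, for which the labels name no other allele. Both cancers are labelled as diffuse type. The labels give no age, no treatment beyond monitoring, and no word on whether each sample is a separate mouse, so the p-values reflect the spread among these samples and nothing wider. As background, the *Pdx1* promoter is active in the pancreas and duodenum and in epithelium of the antrum, the stomach's distal part; the labels do not say which stomach region the NGE samples came from, so region and genotype cannot be told apart.

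Values are normalized log2 signals, on which a difference of 1 is 2-fold. Array medians lay between 7.63 and 7.81, and precision is limited by how many arrays each group holds. In NGE the members' means ranked at the 96.3rd percentile of genes or above, so all 10 stood among the brightest genes of the normal tissue. *Cdh1* averaged 9.6 in pChePS_GC, 11.2 in pCP_GC and 12.98 in NGE, and *Smad4* averaged 10.49, 11.44 and 11.09 in the same order. The labels do not place the probe sets within or outside the floxed exons, so these levels are no check of recombination. *Xist*, from the X chromosome, averaged 5.85 ± 0.14 in pChePS_GC, 5.67 ± 0.13 in pCP_GC and 12.24 ± 0.49 in NGE, and the Y-linked *Eif2s3y* averaged 10.27 ± 0.85, 9.31 ± 1.06 and 5.08 ± 0.10 (SD, n = 4, 3 and 4). Sex-linked levels therefore run with the tumour groups, and sex and tumour cannot be told apart in any comparison with NGE.

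The upstream sequences of 4 members are shown here because they pair the gastrokine neighbours, which share a stretch of chromosome 6, and set the member lowest in pCP_GC relative to NGE beside the member whose difference was smallest in pChePS_GC. Each run is the 250 bases before the start site in RefSeq (GRCm38.p6), read 5′ to 3′ on the gene's own strand. *Gkn1* lies on the minus strand (chr6:87350916-87351165) and *Gkn2* on the plus strand (chr6:87373115-87373364), with 22450 bases between their starts. *Capn9* (chr8:124575861-124576110) is on the plus strand, and *Anxa10* (chr8:62123194-62123443) is on the minus strand. Capitals mark matches to any of 5 short motifs.
Gkn1: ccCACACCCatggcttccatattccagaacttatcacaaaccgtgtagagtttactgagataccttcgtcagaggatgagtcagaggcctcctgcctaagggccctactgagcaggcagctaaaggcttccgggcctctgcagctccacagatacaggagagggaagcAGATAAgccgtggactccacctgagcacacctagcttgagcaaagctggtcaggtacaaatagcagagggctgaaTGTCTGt
Gkn2: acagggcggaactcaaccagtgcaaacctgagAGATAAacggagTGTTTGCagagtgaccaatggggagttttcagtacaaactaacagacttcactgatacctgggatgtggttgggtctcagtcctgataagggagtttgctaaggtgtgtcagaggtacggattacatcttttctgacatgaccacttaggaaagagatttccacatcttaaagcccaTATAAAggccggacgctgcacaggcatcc
Capn9: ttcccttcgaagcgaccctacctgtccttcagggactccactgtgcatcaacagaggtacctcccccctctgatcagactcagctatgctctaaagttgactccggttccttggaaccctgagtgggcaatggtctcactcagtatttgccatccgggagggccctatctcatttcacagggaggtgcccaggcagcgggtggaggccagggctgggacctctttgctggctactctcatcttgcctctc
Anxa10: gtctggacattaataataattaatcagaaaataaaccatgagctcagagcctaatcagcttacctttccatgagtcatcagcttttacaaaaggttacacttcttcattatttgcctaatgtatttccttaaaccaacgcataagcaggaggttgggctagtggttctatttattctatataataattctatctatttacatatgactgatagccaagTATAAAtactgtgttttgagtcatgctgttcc
For the core promoter box the letters searched were TATAAA, for forkhead factors TGTTTNC, for GATA-binding factors AGATAA, for Krüppel-like factors CACACCC and for SMAD factors CAGACA, each on both strands, and no matches overlapped. *Gkn2* held TATAAA 29 bases before its start, with AGATAA at 218 and TGTTTGC at 206 bases before it. *Gkn1* held CACACCC at 248 and AGATAA at 82 bases before its start, and CAGACA on the opposite strand (read here as TGTCTG) at 7. *Anxa10* held TATAAA at 32 bases before its start, and none of these letters occurred in the *Capn9* window.
RefSeq windows were matched for 7 of the 10 members, which also included *Capn8*, *Mucl3* and *Vsig1*. TATAAA occurred in 2 of the 7 windows and in 12.4% of all 32851, TGTTTNC in 1 and in 17.8%, AGATAA in 2 and in 9.99%, CACACCC in 2 and in 6.93%, and CAGACA in 1 and in 17.1%. A match describes letters only and shows no binding.

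Every member was lower in each pChePS_GC array than in any NGE array, a separation seen in 22.9% of all genes. By limma, 9 of the 10 fell in pChePS_GC at an adjusted p under 0.05, where 23.4% of all genes fell; with arrays centred on their medians the share of genes that fell was 15.4%, and the same number of members was called. The numbers of genes that rose and fell were 3728 and 4658, against 3933 and 3078 with centring. The median difference of the members was -2.43, against -0.10 for all genes. The *Gkn2* difference did not pass (adjusted p = 0.0537). An exact two-sided permutation test over the arrays gave p = 0.0286 for each member, the smallest that 4 arrays against 4 allow.

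All 10 members were also lower in each pCP_GC array than in any NGE array, as 35.6% of all genes were. In pCP_GC 3 members fell by limma (*Psca*, *Capn8* and *Capn9*), where 31.8% of all genes did, so that the members' share lay near that of all genes. The members' median difference was -0.66, against -0.12 for all genes. Exact two-sided permutation gave p = 0.0286 for each member here too, the smallest possible for 3 arrays against 4. When pCP_GC and NGE were fitted alone, without the pChePS_GC arrays, 9 of 10 members fell, where 33.1% of all genes did, and *Gkn2* did not pass (adjusted p = 0.0561). The adjusted p of the 6 members that passed in that fit alone ran from 7.81e-06 for *Muc5ac* to 0.015 for *Anxa10*. Among them were *Tff1* (0.00478), *Gkn1* (0.00444) and *Mucl3* (0.00232). The fit of all 3 groups uses the same estimate of a gene's spread for every group. The pCP_GC intervals and adjusted p given below for each member therefore also carry the spread of the pChePS_GC arrays. Tumour tissue is a mixture of cells, and fewer pit cells and less RNA per pit cell cannot be told apart in these arrays.

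**Figure D1:**
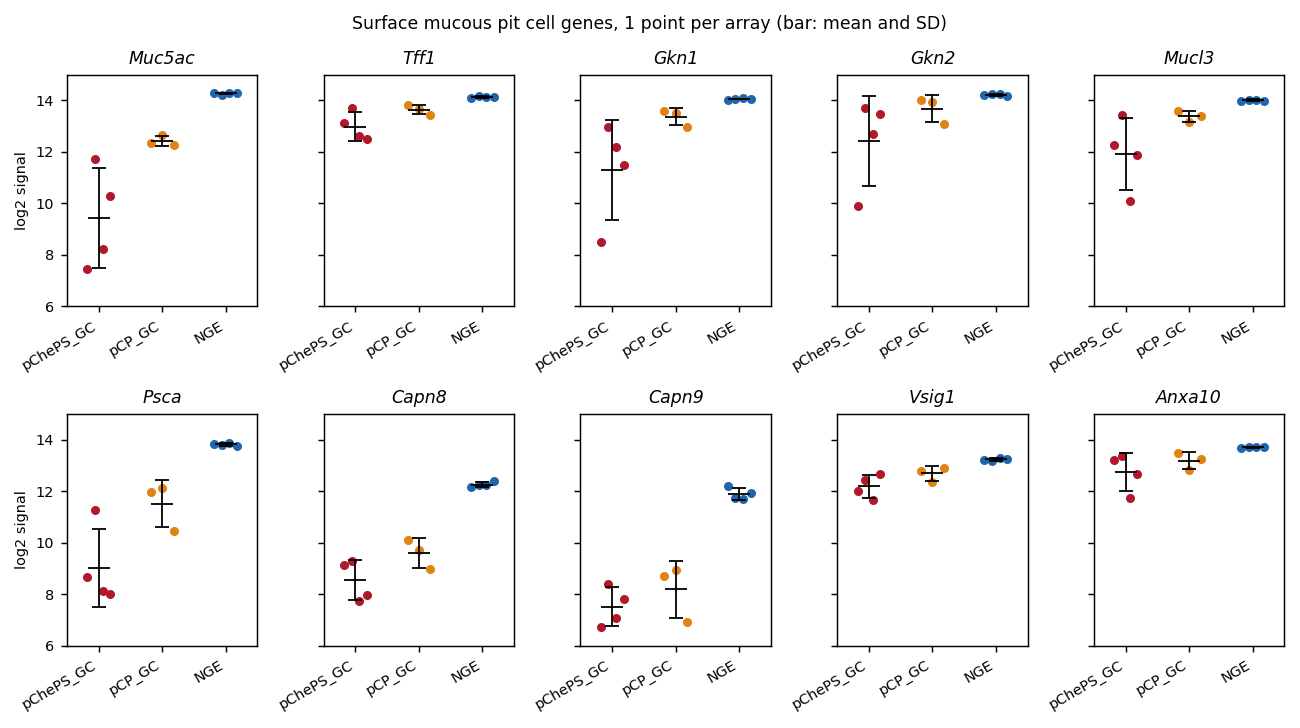
Log2 signal of the 10 members in each array (points), by group, with the group mean and SD as bars, for 4 pChePS_GC, 3 pCP_GC and 4 NGE arrays. In each panel every NGE point lies above every tumour point, and the pChePS_GC points are the most spread in 9 of the 10 panels.

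*Muc5ac* encodes the gel-forming mucin of the gastric surface. It read 7.44, 11.73, 8.22 and 10.30 in pChePS_GC, 12.35, 12.64 and 12.27 in pCP_GC, and 14.29, 14.22, 14.28 and 14.28 in NGE. The 3 groups formed separate bands, with pChePS_GC lowest and spread over more than 4 log2 units. *Muc5ac* fell by 4.84 in pChePS_GC (SE 0.73, 95% interval -6.46 to -3.23, limma adjusted p = 0.000545), which is 28.7-fold lower against NGE readings at the top of the array's scale. The difference was -4.18 without pChePS_GC replicate 1 and -5.61 without replicate 2. In pCP_GC its difference from NGE was -1.85 (95% interval -3.59 to -0.10, adjusted p = 0.0716); with pCP_GC and NGE fitted alone the adjusted p was 7.81e-06. Its replicates within pCP_GC lay close together, with an SD of 0.19 (n = 3), against 1.96 in pChePS_GC (n = 4).

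*Mucl3* encodes a membrane mucin-like protein. It read 12.25, 13.43, 10.07 and 11.86 in pChePS_GC, 13.58, 13.16 and 13.39 in pCP_GC, and 13.96, 14.02, 14.03 and 13.99 in NGE. The separation from NGE was complete in both cancers but narrow for pCP_GC and for pChePS_GC replicate 2. It fell by 2.10 in pChePS_GC (SE 0.52, adjusted p = 0.00984), 4.28-fold lower, and its pCP_GC difference was -0.62 (95% interval -1.87 to 0.63, adjusted p = 0.375). Without pChePS_GC replicate 3 the *Mucl3* difference in pChePS_GC was -1.49 (adjusted p = 0.0038).

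Of the secreted peptides, *Tff1* encodes the trefoil factor that accompanies MUC5AC in surface mucus. It read 13.13, 13.70, 12.61 and 12.48 in pChePS_GC, 13.82, 13.66 and 13.44 in pCP_GC, and 14.09, 14.16, 14.14 and 14.14 in NGE. Even the lowest tumour array kept a high signal for this gene. *Tff1* fell by 1.15 in pChePS_GC (SE 0.22, adjusted p = 0.00258), 2.22-fold lower, and its pCP_GC difference was -0.50 (95% interval -1.03 to 0.04, adjusted p = 0.107).

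The gastrokines *Gkn1* and *Gkn2* encode small secreted proteins of surface mucous cells, of which human GKN1 is often lost in gastric cancer. *Gkn1* read 8.51, 12.97, 12.19 and 11.50 in pChePS_GC, 13.57, 13.52 and 12.98 in pCP_GC, and 14.03, 14.05, 14.07 and 14.05 in NGE. It fell by 2.76 in pChePS_GC (SE 0.73, adjusted p = 0.0133), 6.75-fold lower, and its pCP_GC difference was -0.69 (95% interval -2.44 to 1.06, adjusted p = 0.481). *Gkn2* read 9.89, 13.69, 12.68 and 13.47 in pChePS_GC, 14.02, 13.93 and 13.07 in pCP_GC, and 14.20, 14.23, 14.23 and 14.18 in NGE. A single array, pChePS_GC replicate 1, held the lowest value of both genes by a wide margin. Without it the *Gkn1* difference was -1.83 (adjusted p = 0.000875), and the *Gkn2* difference was -0.93 and passed (adjusted p = 0.0212). With all arrays the *Gkn2* differences were -1.78 in pChePS_GC (95% interval -3.26 to -0.29, adjusted p = 0.0537) and -0.53 in pCP_GC (95% interval -2.14 to 1.07, adjusted p = 0.555).

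Set beside each other array by array, *Gkn1* was further below its NGE mean than *Gkn2* in 6 of the 7 tumour arrays. Their differences from NGE were -5.54 and -4.32 in pChePS_GC replicate 1, -1.08 and -0.52 in replicate 2, -1.86 and -1.53 in replicate 3, and -2.54 and -0.74 in replicate 4. In pCP_GC they were -0.48 and -0.19, -0.53 and -0.28, and -1.07 and -1.14. The last of these, pCP_GC replicate 3, was the exception. In NGE *Gkn2* read 0.02 to 0.09 below the brightest gene of its array and *Gkn1* 0.20 to 0.26 below it, so the *Gkn2* differences may be the more compressed, and the order of the 2 genes is a description of these readings only.

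*Capn8* and *Capn9* encode the gastric calpains, calcium-dependent proteases that form a complex in mouse surface mucous cells. *Capn8* read 9.11, 9.28, 7.75 and 7.98 in pChePS_GC, 10.11, 9.72 and 8.97 in pCP_GC, and 12.15, 12.22, 12.24 and 12.40 in NGE. It fell by 3.72 in pChePS_GC (SE 0.35, adjusted p = 2.2e-05), 13.2-fold lower. In pCP_GC it fell by 2.65 (SE 0.37, adjusted p = 0.000371), 6.28-fold lower. *Capn9* read 6.73, 8.41, 7.07 and 7.82 in pChePS_GC, 8.69, 8.93 and 6.92 in pCP_GC, and 12.18, 11.74, 11.71 and 11.91 in NGE. These were the widest gaps to NGE among the members in pCP_GC, where even the highest *Capn9* array lay well below the lowest NGE array.

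*Capn9* fell by 4.38 in pChePS_GC (SE 0.45, adjusted p = 4.17e-05), 20.8-fold lower. In pCP_GC it fell by 3.70 (SE 0.48, adjusted p = 0.000238), 13-fold lower. Without pCP_GC replicate 3 the *Capn9* difference in pCP_GC was -3.07 (adjusted p = 0.000493). The lowest reading of *Capn9*, in pChePS_GC replicate 1, lay under 6.99, the 95th percentile of 1190 odorant and vomeronasal receptor genes in that group, genes known mainly from sensory neurons. No group mean of any member was under that level, which was 6.86 in pCP_GC and 7.24 in NGE. Because a reading near it has little room to fall, the *Capn9* fold changes may be understated. *Capn9* differed from NGE by more than *Capn8* in 6 of the 7 tumour arrays, pChePS_GC replicate 4 being the exception (-4.06 for *Capn9* and -4.27 for *Capn8*).

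*Psca* encodes prostate stem cell antigen, a lipid-anchored surface protein of the Ly6 family that marks gastric pit and isthmus cells. It read 8.65, 11.25, 8.10 and 8.02 in pChePS_GC, 11.96, 12.12 and 10.45 in pCP_GC, and 13.84, 13.80, 13.87 and 13.76 in NGE. In pChePS_GC 3 arrays lay close together and replicate 2 stood higher, within the pCP_GC range. *Psca* fell by 4.81 in pChePS_GC (SE 0.64, adjusted p = 0.000225), 28.1-fold lower. In pCP_GC it fell by 2.31 (SE 0.69, adjusted p = 0.0166), 4.95-fold lower. Without pCP_GC replicate 3 the pCP_GC call of *Psca* was lost (adjusted p = 0.0717), and without pChePS_GC replicate 2 its pChePS_GC difference was -5.56.

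*Vsig1* encodes a junctional adhesion protein of the immunoglobulin family found in gastric epithelium. It read 11.99, 12.44, 11.66 and 12.66 in pChePS_GC, 12.79, 12.37 and 12.89 in pCP_GC, and 13.22, 13.17, 13.30 and 13.24 in NGE. The tumour groups overlapped each other and lay little below NGE. *Vsig1* fell by 1.04 in pChePS_GC (SE 0.20, adjusted p = 0.00224), 2.06-fold lower, and its pCP_GC difference was -0.55 (95% interval -1.02 to -0.08, adjusted p = 0.051). It is the only member on the X chromosome, and the part of sex in its change was not tested.

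*Anxa10* encodes a calcium- and lipid-binding annexin abundant in gastric epithelium. It read 13.20, 13.38, 11.73 and 12.66 in pChePS_GC, 13.47, 12.83 and 13.25 in pCP_GC, and 13.66, 13.71, 13.72 and 13.72 in NGE. It had the smallest difference of any member in pChePS_GC, falling by 0.96 (SE 0.30, adjusted p = 0.0258), 1.95-fold lower, and a pCP_GC difference of -0.52 (95% interval -1.23 to 0.19, adjusted p = 0.196). The pChePS_GC call of *Anxa10* was lost on leaving out NGE replicate 1 (adjusted p = 0.0532), replicate 3 (0.0586) or replicate 4 (0.0567).

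Several members were read near the top of the array's scale in NGE. *Muc5ac* in NGE was at most 0.02 below the brightest gene of its array, *Gkn2* at most 0.09, *Tff1* at most 0.20, *Gkn1* at most 0.26 and *Mucl3* at most 0.33. For *Psca*, *Anxa10* and *Vsig1* the gap was at most 0.51, 0.63 and 1.08, and for *Capn8* and *Capn9* it was at least 1.88 and 2.11. Signals near a ceiling can be compressed, which limits any ranking of members by fold change, and its part was not tested.

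**Figure D2:**
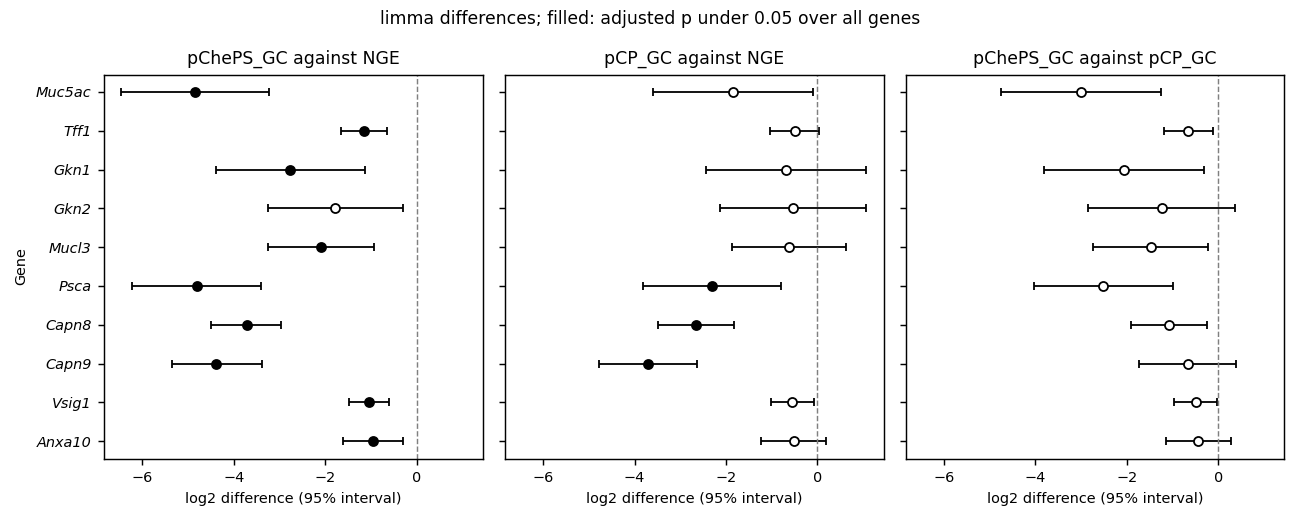
Differences in mean log2 signal for each member, with 95% intervals from limma, for pChePS_GC minus NGE, pCP_GC minus NGE and pChePS_GC minus pCP_GC. All 30 estimates are below 0, and 12 (filled points) pass at an adjusted p under 0.05 (9, 3 and 0 in the 3 comparisons).

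Between the cancers, the comparison asks whether the genotypes differ: 1 of 2 *Cdh1* alleles floxed together with *Smad4* in pChePS_GC, and both *Cdh1* alleles floxed in pCP_GC, for which no *Smad4* allele is named. All 10 means were lower in pChePS_GC, but 0 of 10 members were called by limma at an adjusted p under 0.05, where 0.251% of all genes were called lower. At an unadjusted p under 0.05, 7 of the 10 members were lower, as were 6.81% of all genes. The median difference of the members was -1.16, against 0.04 for all genes.

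*Muc5ac* differed most between the cancers, by -3.00 (SE 0.79, 95% interval -4.75 to -1.25, adjusted p = 0.136), and its 4 pChePS_GC arrays all lay below the 3 pCP_GC arrays (exact two-sided permutation p = 0.0571). *Psca* came next at -2.51 (95% interval -4.02 to -0.99, adjusted p = 0.147), with overlapping groups and an exact permutation p of 0.0857. *Gkn1* differed by -2.06 (95% interval -3.81 to -0.31, adjusted p = 0.242), its groups just separate at 12.97 for the highest pChePS_GC array and 12.98 for the lowest pCP_GC array. Such separation, pChePS_GC below pCP_GC, held for 2 of the members and for 4.4% of all genes.

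For *Capn9* the difference between the cancers was small beside its drop from NGE, at -0.67 (95% interval -1.74 to 0.39, adjusted p = 0.492), and it was -1.07 for *Capn8* (95% interval -1.90 to -0.25, adjusted p = 0.209). The other members lay between -1.48 for *Mucl3* and -0.44 for *Anxa10*, with adjusted p from 0.23 to 0.498. These intervals do not show that the genotypes act alike. Leaving out pChePS_GC replicate 2, the array with the highest pit cell signals, brought 2 members past the threshold: *Muc5ac*, at -3.77 (adjusted p = 0.0229), and *Psca*, at -3.25 (adjusted p = 0.0104). Under that setting 60 of 19938 genes were called lower. Each of the 2 members passed in only 1 of 22 settings. Because that array was the highest of pChePS_GC for both, leaving it out widens their differences by construction, and these calls give no support for a difference.

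The spread among tumour arrays was itself large. The median SD of a member was 1.08 in pChePS_GC, 0.33 in pCP_GC and 0.03 in NGE, against 0.18, 0.15 and 0.14 for all genes. Every member's SD was higher in both tumour groups than in NGE. The NGE SDs ran from 0.02 to 0.22, the highest being that of *Capn9*, and for the brightest members they come from readings near the top of the array's scale, where variation may be compressed. In pChePS_GC the SDs of *Muc5ac* and *Gkn1* exceeded those of 99.8% of genes, and that of *Vsig1*, the lowest among members, those of 86.5%.

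No single pChePS_GC array was lowest for all members. Replicate 1 was lowest for *Muc5ac*, *Gkn1*, *Gkn2* and *Capn9*; replicate 3 for *Mucl3*, *Capn8*, *Vsig1* and *Anxa10*; and replicate 4 for *Tff1* and *Psca*. Replicate 2 was highest for 9 of the 10, all but *Vsig1*. The members' median difference from NGE was -3.73, -0.93, -2.95 and -2.34 in pChePS_GC replicates 1 to 4, and -0.46, -0.87 and -1.10 in the pCP_GC arrays. Counted per array, 9, 5, 10 and 8 members were lower than NGE by more than 2-fold in pChePS_GC, against 4, 4 and 6 in pCP_GC. The share of all genes past that cut was not counted by array, and the all-gene median difference lay between -0.12 and -0.08.

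**Figure D3:**
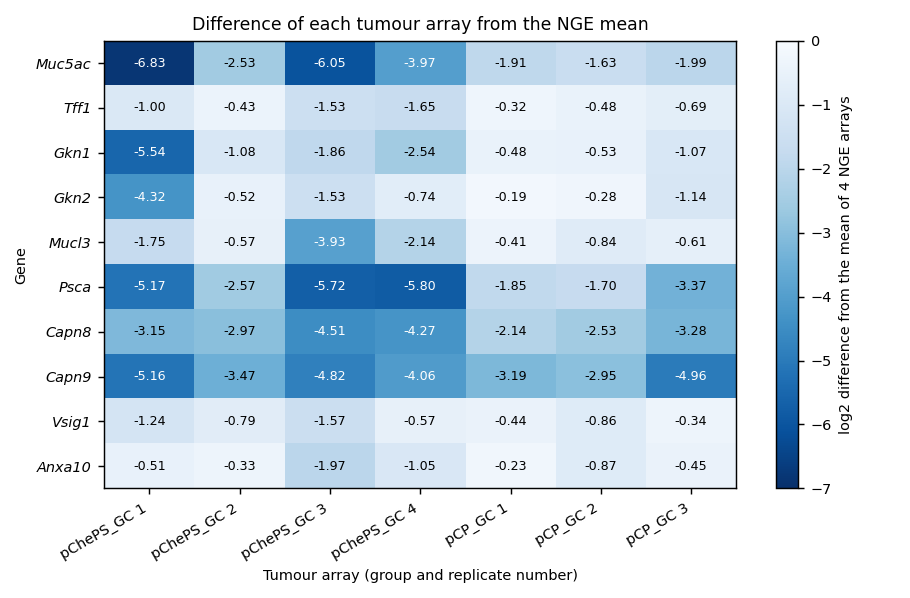
Heat map of each member's log2 difference from the NGE mean (colour and printed value) in the 4 pChePS_GC and 3 pCP_GC arrays. All values are negative, the lowest being *Muc5ac* in pChePS_GC replicate 1 (-6.83) and the nearest to 0 *Gkn2* in pCP_GC replicate 1 (-0.19).

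Paralogues of the pit cell genes often lie beside them in the genome and are known from other cell types. *Gkn3*, the gastrokine of mouse mucous neck cells, follows *Gkn1* and *Gkn2* on chromosome 6 and went the other way. It read 11.95, 12.85, 12.99 and 13.50 in pChePS_GC, 13.50, 13.46 and 13.31 in pCP_GC, and 10.98, 11.82, 10.48 and 10.71 in NGE. All tumour arrays lay above all NGE arrays: *Gkn3* rose by 1.82 in pChePS_GC (SE 0.33, adjusted p = 0.00171) and by 2.43 in pCP_GC (SE 0.36, adjusted p = 0.000472).

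*Muc6*, the gland mucin of mucous neck and antral gland cells, lies in the same run of mucin genes on chromosome 7 as *Muc5ac*. It read 11.24, 12.94, 13.53 and 13.14 in pChePS_GC, 13.83, 13.97 and 13.44 in pCP_GC, and 13.47, 13.66, 13.54 and 13.39 in NGE, so that the groups overlapped. Its differences from NGE were -0.80 (adjusted p = 0.118) and 0.23 (adjusted p = 0.659). *Muc2*, the intestinal goblet cell mucin, and *Muc5b*, a gel-forming mucin of airways and salivary glands, lie on either side of *Muc5ac*. *Muc2* read 7.39, 7.40, 7.70 and 12.22 in pChePS_GC, 7.47, 7.66 and 9.39 in pCP_GC, and 8.18, 8.31, 8.72 and 9.60 in NGE. *Muc5b* read 7.97, 9.99, 7.74 and 11.38 in pChePS_GC, 7.63, 8.57 and 7.53 in pCP_GC, and 8.34, 8.30, 8.25 and 8.31 in NGE. Neither was called, and pChePS_GC replicate 4 stood above the other arrays for both.

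*Tff2*, the trefoil factor of mucous neck cells, and *Tff3*, that of intestinal goblet cells, adjoin *Tff1* on chromosome 17. *Tff2* read 13.04, 13.70, 13.72 and 13.23 in pChePS_GC, 14.10, 14.08 and 14.02 in pCP_GC, and 13.84, 13.91, 14.00 and 13.89 in NGE. It was lower by 0.49 in pChePS_GC, a difference that passed (adjusted p = 0.0206), while its difference in pCP_GC was 0.16 (adjusted p = 0.417). Every pCP_GC array of *Tff2* lay above every NGE array. The pCP_GC adjusted p also carries the pChePS_GC spread (SD 0.34, against 0.04 in pCP_GC and 0.07 in NGE). *Tff3* read 8.66, 10.71, 8.16 and 13.63 in pChePS_GC, 9.40, 8.62 and 9.71 in pCP_GC, and 8.63, 8.62, 9.45 and 9.88 in NGE. The *Tff3* groups overlapped, with pChePS_GC replicate 4 highest again, and its differences were 1.14 (adjusted p = 0.35) and 0.10 (adjusted p = 0.944). No member-against-relative difference was itself tested.

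**Figure D4:**
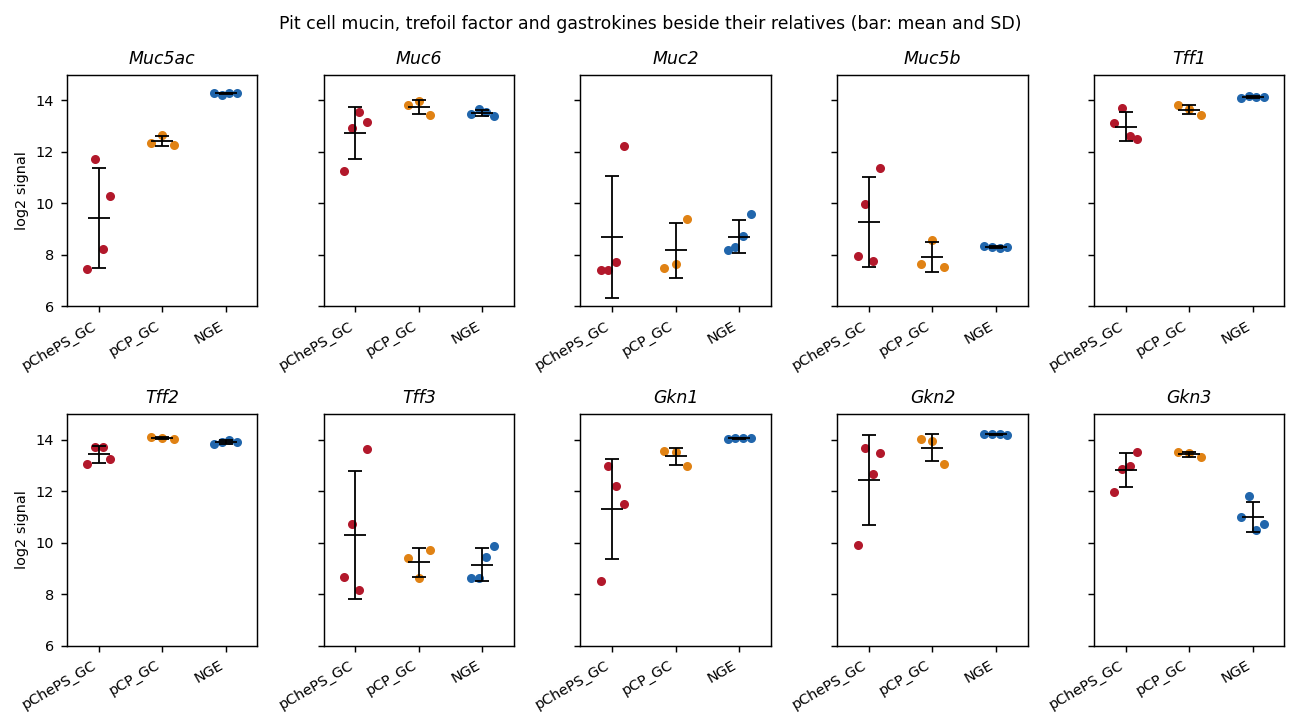
Log2 signal per array (points) of *Muc5ac*, *Tff1*, *Gkn1* and *Gkn2* beside their gel-forming mucin, trefoil factor and gastrokine relatives, by group, with mean and SD as bars. *Gkn3* lies higher in all 7 tumour arrays than in all 4 NGE arrays, opposite to *Gkn1* and *Gkn2*.

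Relatives of the other members showed mixed directions. Of 13 measured calpain genes besides the members, 2 rose and 5 fell in pChePS_GC, and 3 rose and 5 fell in pCP_GC; among all genes 18.7% rose in pChePS_GC and 20% in pCP_GC. *Capn2*, a ubiquitous calpain named here for its place next to *Capn8* on chromosome 1, was higher by 0.76 in pChePS_GC (adjusted p = 0.017) and by 0.62 in pCP_GC (adjusted p = 0.0421). *Capn13* had a difference of -2.30 in pChePS_GC (adjusted p = 0.00482) and -2.04 in pCP_GC (adjusted p = 0.00982).

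Of 11 measured annexin relatives of *Anxa10*, 7 rose and 0 fell in pChePS_GC (differences from -0.17 to 3.47), and 6 rose and 0 fell in pCP_GC (-0.97 to 3.45); their difference from *Anxa10* was not tested. *Anxa8* rose by 3.47 in pChePS_GC (adjusted p = 3.11e-05) and by 3.45 in pCP_GC (adjusted p = 6.22e-05), and *Anxa1*, an anti-inflammatory annexin, by 2.81 in pChePS_GC and by 2.70 in pCP_GC (adjusted p = 4.97e-06 and 1.42e-05). Among 7 measured Ly6 relatives of *Psca*, 1 rose and 4 fell in each cancer. *Slurp1*, a secreted member of that family, fell by 1.70 in pChePS_GC and fell by 1.69 in pCP_GC (adjusted p = 0.000748 and 0.00114). Of 6 junctional relatives of *Vsig1*, 3 rose and 1 fell in each cancer. *Gpa33*, an intestinal epithelial antigen, rose by 1.55 in pChePS_GC and by 1.15 in pCP_GC (adjusted p = 0.000464 and 0.00349). *Clmp* and *Esam* rose by 2.03 and 2.00 in pChePS_GC and by 1.89 and 1.96 in pCP_GC. The 1 that fell was *Vsig2*, with differences of -0.67 in pChePS_GC and -0.53 in pCP_GC (adjusted p = 0.000449 and 0.00253).

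A list of 11 other surface mucous genes was also measured, and its difference from the members was not tested. In pChePS_GC 8 of the 11 fell and 0 rose, with a median difference of -0.83, and in pCP_GC 6 fell and 0 rose, with a median of -0.60; with arrays centred, 8 and 4 fell. *Fer1l6*, which encodes a ferlin, averaged 7.48 in pChePS_GC, 8.28 in pCP_GC and 11.15 in NGE, and fell by 3.66 in pChePS_GC (SE 0.43, adjusted p = 0.000106); in pCP_GC it fell by 2.87 (SE 0.47, adjusted p = 0.000851). *B4galnt3*, a glycosyltransferase that builds terminal structures on gastric mucins, fell by 2.16 in pChePS_GC and fell by 2.04 in pCP_GC (adjusted p = 4.97e-06 and 1.56e-05). *Sptssb*, a subunit of serine palmitoyltransferase, fell by 1.99 in pChePS_GC and fell by 1.27 in pCP_GC (adjusted p = 0.00474 and 0.0407).

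Of 14 transcription factors of gastric epithelium, 2 rose and 5 fell in pChePS_GC (median -0.17), and 3 rose and 6 fell in pCP_GC (median 0.05). *Klf4*, a Krüppel-like factor of differentiating surface epithelium, averaged 9.95 ± 0.41 in pChePS_GC, 10.31 ± 0.24 in pCP_GC and 11.93 ± 0.13 in NGE (SD, n = 4, 3 and 4). *Klf4* fell by 1.98 in pChePS_GC and fell by 1.62 in pCP_GC (adjusted p = 2.22e-05 and 0.000167). *Foxa3*, a forkhead factor of endodermal epithelium, fell by 1.60 in pChePS_GC and fell by 1.26 in pCP_GC (adjusted p = 0.00114 and 0.00519), whereas the epithelial ETS factor *Ehf* rose by 1.75 in pChePS_GC and by 1.70 in pCP_GC (adjusted p = 2.74e-06 and 7.21e-06).

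The enzymes and helpers that assemble mucins did not move as one. Of 14, 1 rose and 5 fell in pChePS_GC (median -0.29), and 3 rose and 2 fell in pCP_GC (median 0.14). *Galnt12*, which starts O-glycan chains, fell by 1.22 in pChePS_GC (adjusted p = 0.000812), and *Ern2*, the stress sensor of mucous cells, fell by 0.75 (adjusted p = 0.0086). *Creb3l4*, a transcription factor of secretory cells, rose by 1.40 in pCP_GC (adjusted p = 0.000499). It was lower in pChePS_GC than in pCP_GC by 1.25 (adjusted p = 0.0373), the only gene of the list called between the cancers. With only the pChePS_GC and pCP_GC arrays fitted, 0 genes were called between the cancers.

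Markers of stromal and immune cells also differed from NGE, mostly in the opposite direction to the members. Stromal and immune genes were far higher in the cancers: 11 of 12 fibroblast genes rose in pChePS_GC and 10 of 12 in pCP_GC (medians 3.24 and 3.06), and all 10 macrophage genes rose in both (medians 3.09 and 2.76). The log2 of the fibroblast genes' summed signal ran from 14.59 to 15.63 in pChePS_GC and from 14.76 to 15.63 in pCP_GC, against 12.06 to 12.49 in NGE. For the macrophage genes it ran from 14.05 to 14.68 and from 13.73 to 14.79, against 10.79 to 11.01. Of 10 endothelial genes, 9 rose in each cancer (medians 2.13 and 2.12), and of 10 smooth muscle genes, 8 rose in each (2.57 and 2.95). No defining marker was at 0, since log2 array signals have no zero. The part of this change in tissue makeup in the members' differences was not tested.

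Genes of epithelium of any kind, in contrast, had medians near 0. Of 20, 6 rose and 4 fell in pChePS_GC (median -0.08), and 4 rose and 2 fell in pCP_GC (median -0.16); with arrays centred, 1 and 0 fell. Their log2 summed signal ran from 16.39 to 16.50 in pChePS_GC and from 16.04 to 16.51 in pCP_GC, against 16.28 to 16.39 in NGE. For the 10 pit cell genes the same quantity ran from 14.67 to 16.07 and from 15.94 to 16.37, against 17.04 to 17.07, so that the ranges of both cancers lay below that of NGE.

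Other gastric lineages differed in direction. Parietal cell genes were lower, 11 of 12 in pChePS_GC and 9 of 12 in pCP_GC (medians -2.12 and -2.15), and of 9 chief cell genes 8 and 7 fell (medians -2.54 and -1.53). Of 10 mucous neck and antral gland genes, 7 rose and 1 fell in pChePS_GC, and 6 rose and 0 fell in pCP_GC (medians 1.75 in both). The 1 that fell was *Tff2* (difference -0.49), and neither *Muc6* in either cancer nor *Tff2* in pCP_GC was called. The largest rises were of *Cftr*, *Cd44* and *Wfdc2*, by 4.46, 4.18 and 3.44 in pChePS_GC and by 5.50, 4.70 and 3.36 in pCP_GC. Proliferation genes rose throughout, 11 of 11 in each cancer (medians 1.27 and 1.62). The differences between these lists and the members were not tested.

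Of 10 enteroendocrine genes, 1 rose and 4 fell in pChePS_GC, and 0 rose and 4 fell in pCP_GC (medians 0.01 and -0.50). *Ghrl*, which encodes ghrelin, fell by 4.32 in pChePS_GC and fell by 2.85 in pCP_GC (adjusted p = 0.000187 and 0.00304), and *Sst*, which encodes somatostatin, fell by 3.38 in pChePS_GC and fell by 3.03 in pCP_GC (adjusted p = 0.000144 and 0.000505). Of 12 forestomach squamous genes, 2 rose and 3 fell in pChePS_GC, and 1 rose and 3 fell in pCP_GC (medians -0.24 and -0.20). Of 8 measured pancreatic acinar genes, 0 rose in either cancer, while 3 fell in pChePS_GC and 4 in pCP_GC (medians 0.09 and -0.56, lowest differences -3.97 and -2.57). Of 11 measured intestinal genes, 3 rose and 1 fell in pChePS_GC, and 1 rose and 2 fell in pCP_GC (medians -0.03 and 0.28).

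Other lists also varied over the pChePS_GC arrays, the smooth muscle list as widely as the members. The members' medians in replicates 1 to 4 were -3.73, -0.93, -2.95 and -2.34. Chief cell medians were -3.11, -2.34, -1.22 and -2.41, and smooth muscle medians 0.34, 3.35, 3.91 and 1.73. Replicate 1, with the lowest pit cell median, was also lowest for the chief cell and smooth muscle lists. The same array was lowest for the fibroblast, macrophage, endothelial, proliferation and mucous neck lists too, and highest for the parietal list. Parietal medians were -1.82, -2.51, -2.49 and -2.18, fibroblast medians 2.80, 3.15, 3.68 and 3.38, and macrophage medians 2.70, 3.29, 2.95 and 3.48. The part of these differences between arrays in the members' spread was not tested.

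**Figure D5:**
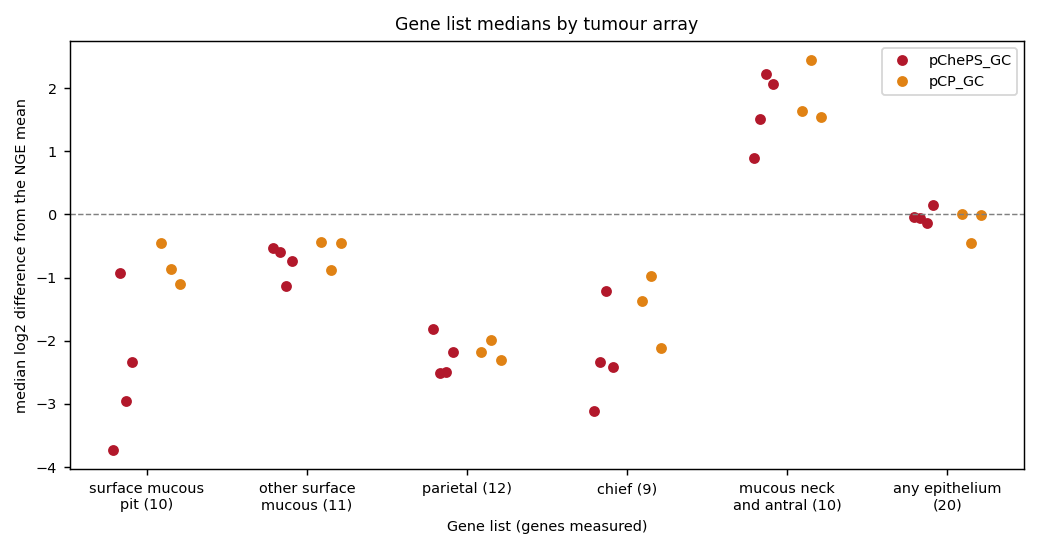
Median log2 difference from the NGE mean of 6 gene lists in each of the 7 tumour arrays (points), for pChePS_GC and pCP_GC. The medians of both surface mucous lists, the parietal list and the chief cell list are below 0 in all 7 arrays, those of the mucous neck and antral list above 0 in all 7, and those of the epithelial list between -0.45 and 0.15.

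The genes nearest to the members in profile were *Hpgd*, *Smim24*, *Bcas1*, *Fam3b* and *Dglucy*, with root mean square distances of 0.47, 0.52, 0.54, 0.56 and 0.56 log2 units from the members' median profile over 11 arrays. The median of all other genes was 1.63. The members' own distances ran from 0.65 for *Gkn1* to 1.95 for *Capn9*, so the 5 genes lay closer to the median than any member did. *Hpgd*, which inactivates prostaglandins, averaged 10.54 in pChePS_GC, 11.71 in pCP_GC and 13.04 in NGE; these levels chose it and carry no test here.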

How the data were processed

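Total RNA was hybridised to arrays, per the labels. The authors deposited log2 normalized signals of 35556 probe sets, made with Affymetrix Expression Console per the submitters' processing notes; the unit was inferred from values of 2.88 to 14.6, and its algorithm, version and build were not given in the sources used here. Normalization sets the level of dim probe sets and the ceiling of bright ones. Of the probe sets, 21789 had 1 gene symbol, 1621 several and 12146 none; each gene took its brightest probe set, which gave 19938 genes.

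With limma 3.58.1 (lmFit, eBayes; R 4.3.3), group means were fitted over all 11 arrays, with Benjamini-Hochberg adjustment over 19938 genes and calls at an adjusted p under 0.05. Single genes were also tested by exact two-sided permutation over arrays. RefSeq (GRCm38.p6) gave gene order and upstream sequences. The members and lists were chosen with earlier results of these data known. Named genes are the members, all mucin, trefoil and gastrokine relatives, the 5 nearest profiles, the floxed and sex-check genes and up to 3 of the largest non-overlapping called differences per list; *Capn2* was added for its position. Alternatives changed the spread prior, groups fitted, normalization, dim filter, array weights, replicate block, thresholds and arrays left out.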

Additional observations from a re-analysis of the deposited data

How the results depend on the processing

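No member difference changed sign under any setting run. For pChePS_GC against NGE the count of 9 lay between 7 and 10 under the other settings, and between 8 and 10 with 1 array left out. For pCP_GC against NGE the count of 3 became 9 with only those groups fitted and 6 with array weights. Of 19938 genes, 6607 and 7618 fell under these settings, against 6343 in the main fit. With 1 array left out the count lay between 2 and 5: 5 without pChePS_GC replicate 2 or 3, and 2 without pCP_GC replicate 3. Between the cancers the count of 0 lay between 0 and 2 with 1 array left out, the 2 arising without pChePS_GC replicate 2. By member, the adjusted p of *Gkn2* in pChePS_GC against NGE ran from 0.0212 to 0.105, that of *Anxa10* from 0.0108 to 0.0586, and that of *Muc5ac* in pCP_GC against NGE from 7.81e-06 to 0.147. With the replicate number as a block the counts were 9, 3 and 0. Same-numbered arrays of different groups correlated at -0.155 to 0.156 in their deviations from group means. Differently numbered arrays correlated at -0.381 to 0.32. With 3 or 4 arrays per group, these values cannot settle whether the numbers pair the samples. All genes called between the cancers were 73, and 0 with the block or with only those 2 groups fitted. The cause of each shift was not tested. By construction, leaving out an array changes the number of samples, and fitting only 2 groups takes the other group's spread out of the estimate. With 3 or 4 arrays per group and bright members near the top of the scale, small differences could not be resolved.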
